A study of Mus musculus with 4 samples.

Results

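The axon guidance genes are the 72 genes of the semaphorin, plexin, neuropilin, slit, roundabout (Robo), netrin, netrin receptor, ephrin and Eph receptor families. They were found by symbol among the 31053 genes of the count tables. The symbol rule uses no measured value, but it was chosen with earlier results of these data known. The 72 genes comprise 36 ligands (20 semaphorins, 8 ephrins, 5 netrins and 3 slits) and 36 receptors (14 Eph receptors, 9 plexins, 7 netrin receptors, 4 Robo receptors and 2 neuropilins). Families follow the symbol alone, so Unc5cl is counted with the netrin receptors, and Ntng1 and Ntng2 with the netrins, whatever they bind. Single cells came from oviducts and uteri of untreated wild type mice of the outbred strain CD1 (ICR, Strain Code:022) on postnatal day 3, with 2 libraries per organ. Per the series' design text, libraries hold pooled neonates, 3 or 4 of them, and both organs came from the same animals, so no library is 1 animal. The enzymes Collagenase B, Dispase II and DNase I freed the cells before capture with a Chromium Single Cell 3' kit. The values are counts of unique molecular identifiers (UMIs) summed per library and cell class, given as CPM, which scales a gene's count to the total UMIs of that library and class.

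In the developing nervous system, secreted or membrane-bound guidance cues steer growing axons by attraction or repulsion through receptors on the growth cone. Slits act through Robo receptors, and the secreted netrin Ntn1 through Dcc, neogenin (Neo1) and Unc5 receptors. Most class 3 semaphorins act through neuropilins and plexins, and ephrins through Eph receptors at cell contacts. The same proteins are used outside the nervous system, where they take part in cell sorting, epithelial branching and the patterning of vessels.

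Promoter windows of 300 bases, from 250 before to 50 after the RefSeq start, were found for 62 of the 72 genes in build GRCm38.p6. The gene positions given further below are those of GENCODE and begin elsewhere. The GENCODE starts of Slit2, Slit3 and Robo4 (47983138, 35121224 and 37401897) lie inside the windows, and most of the Slit3 window lies after its GENCODE start. Shown here are those of Slit2 and Slit3, which had opposite organ differences in mesenchyme and smooth muscle, and of Robo4, which had its highest level in blood endothelium. The sequences run 5' to 3' on the strand of the gene. Capitals mark matches on either strand to the GC box GGGCGG, to the box CCAAT, to the TATA box TATAAA, to the ETS core CCGGAAG or to the E-box motif CACGTG.
Slit2, chr5:47982905-47983204, plus strand: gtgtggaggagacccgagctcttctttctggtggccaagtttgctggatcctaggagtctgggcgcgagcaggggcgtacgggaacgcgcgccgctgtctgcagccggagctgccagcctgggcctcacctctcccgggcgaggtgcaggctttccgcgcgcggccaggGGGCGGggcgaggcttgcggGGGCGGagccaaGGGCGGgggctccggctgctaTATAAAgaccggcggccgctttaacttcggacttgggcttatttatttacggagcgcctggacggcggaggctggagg
Slit3, chr11:35121206-35121505, plus strand: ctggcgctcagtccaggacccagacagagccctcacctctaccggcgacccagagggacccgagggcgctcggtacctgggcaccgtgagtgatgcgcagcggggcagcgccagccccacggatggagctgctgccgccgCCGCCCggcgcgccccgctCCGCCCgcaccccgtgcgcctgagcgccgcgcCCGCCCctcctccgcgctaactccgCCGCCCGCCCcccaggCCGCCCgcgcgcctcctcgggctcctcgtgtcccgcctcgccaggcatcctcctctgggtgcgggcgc
Robo4, chr9:37401722-37402021, plus strand: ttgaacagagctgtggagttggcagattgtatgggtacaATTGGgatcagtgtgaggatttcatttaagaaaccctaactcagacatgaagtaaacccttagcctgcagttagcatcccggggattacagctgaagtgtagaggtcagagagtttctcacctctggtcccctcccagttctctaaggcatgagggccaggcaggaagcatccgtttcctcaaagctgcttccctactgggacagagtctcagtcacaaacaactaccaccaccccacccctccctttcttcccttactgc
The GC content was 68.0% in the Slit2 window, 78.3% in the Slit3 window and 50.3% in the Robo4 window. Over the 78 windows of guidance genes the median GC content was 64.0%, against 52.7% over all 32851 windows. The GC box stood in 70.5% of the guidance gene windows and in 35.7% of all windows. The TATA box stood in 2.56% against 13.6%, the ETS core in 2.56% against 8.86%, the CCAAT box in 30.8% against 37.4% and the E-box in 6.41% against 7.15%. A match describes these letters only and is not a measured binding site.

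Cells were placed in 12 classes by marker genes, none of which is a guidance gene. Of these, 7 were compared, each named for its resemblance to those markers: mesenchyme, smooth muscle, epithelium, mesothelium (the outer lining), pericytes (mural cells of vessels), blood endothelium and myeloid cells. The 4 libraries held 5716 to 7808 called barcodes and 61117726 to 114419939 UMIs, and 3872 to 6488 cells per library passed the filters. No class was met by 629 and 672 oviduct cells (9.69% and 12.2%) and by 854 and 977 uterine cells (22.1% and 22.8%). With a stricter marker gate mesenchyme fell from 4081 and 3166 to 3511 and 2593 cells in the oviduct. In the uterus it fell from 1965 and 1976 to 1009 and 1077 cells. Differences that moved with this gate are given with the results. Erythroid cells were left out, although they too passed the limit of 20 cells per library and class. They numbered 136 and 54 per oviduct library against 87 and 348 per uterine library. Of these, 6 and 9 against 81 and 345 also lay in a cell cluster named for erythroid markers. The smallest classes were the epithelium and mesothelium of the uterus, with 49 and 51 and with 57 and 49 cells, and the uterine myeloid cells, with 51 and 37. Between 8 and 15 barcodes were shared by any 2 libraries. Over all kept cells of a library, 7 markers of neurons summed to 69.0 and 45.9 CPM in the oviduct and to 27.0 and 23.2 CPM in the uterus. The 7 markers of Schwann cells summed to 9.17 and 10.6 against 6.83 and 5.70 CPM, and at most 7 cells of a library had UMIs of 3 markers of either kind. The 4 markers of ovarian somatic cells summed to 80.8 and 84.97 against 45.7 and 40.3 CPM, with Fshr at 0 in every library and at most 2 cells of a library with UMIs of 3 markers. Markers of lymphatic endothelium summed to 11.7 to 15.5 CPM and those of germ cells to 0.206 to 0.698 CPM. The part of such cells in the organ differences was not tested.

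Guidance genes were called different between the organs in 6 of the 7 classes, most often in mesenchyme and smooth muscle. A gene is called at an adjusted p (edgeR's quasi-likelihood test, Benjamini-Hochberg over all genes of the class) under 0.05. In mesenchyme 40 of 64 tested guidance genes were called, against 40.7% of all genes tested there. Of the 40, 26 had more RNA in the oviduct (21.8% of all genes) and 14 in the uterus (18.9%). In smooth muscle 30 of 52 were called, against 28.3% of all genes, 18 for the oviduct (15.5%) and 12 for the uterus (12.8%). Epithelium had 20 calls of 50, against 21.9% of all genes, 12 for the oviduct (13.6%) and 8 for the uterus (8.29%). Mesothelium had 14 of 54, against 6.93%, with 10 for the oviduct (3.89%) and 4 for the uterus (3.04%). Pericytes had 8 of 37, against 6.15%, with 4 for the oviduct (3.98%) and 4 for the uterus (2.16%). Blood endothelium had 6 of 40, against 3.13%, with 5 for the oviduct (2.45%) and 1 for the uterus (0.683%). In myeloid cells edgeR called 0 of 10, against 0.148% of all genes. There 2 guidance genes, Slit2 and Nrp1, had an unadjusted p under 0.05, as did 453 of all 6079 genes, and DESeq2 called 0. The median absolute log2 fold change of the tested guidance genes was 0.63 in mesenchyme and 0.64 in smooth muscle, against 0.27 for all genes in either class. The guidance genes were not matched to the other genes for level.

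The organs were compared within a class, but in the classes with most calls different clusters of cells held the class in each organ. Clusters were formed over all kept cells without the guidance genes. Clusters with at least 90% of their mesenchymal cells from the oviduct held 87.8% of the oviduct mesenchyme, and those with at least 90% from the uterus held 58.3% of the uterine mesenchyme. Of all clusters, 1, 2 and 5 held most of the oviduct mesenchyme (23.5%, 20.3% and 14.6%) and 0 and 7 most of the uterine mesenchyme (35.2% and 19.3%). Cluster 7 is below the 90% limit, with 94 and 85 oviduct cells beside 372 and 388 uterine ones. Of the smooth muscle cells, 57.1% of the oviduct's were in cluster 6, which held 0.207% of the uterine ones, and 66.3% of the uterine ones were in cluster 3, with 2.92% of the oviduct's. In epithelium cluster 22 held 58.3% of the oviduct cells, while clusters 20 and 23 held all 100 uterine cells. The median depth of an epithelial cell was 19636.5 and 16899 UMIs for the oviduct against 7215 and 3336 UMIs for the uterus. Over all their cells the medians were 29263 in cluster 22, 1706 in cluster 20 and 2649 in cluster 23, and the part of this gap in median depth in the epithelial differences was not tested. The tests use sums, which were 7395993 and 8566868 UMIs over 148 and 236 oviduct epithelial cells. For the uterus they were 1422267 and 2015364 UMIs over 49 and 51 cells. In each of these libraries the mean per cell lay above the median, so the deeper cells weigh most in the sums. Mesothelium was held by cluster 4 (99.3% and 100% of the cells of oviduct and uterus), pericytes by cluster 11 (99.6% and 98.4%) and blood endothelium by cluster 17 (88.8% and 81.2%). Different kinds of cells and a different RNA content of the same kind cannot be told apart in the first 3 classes.

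**Figure D1:**
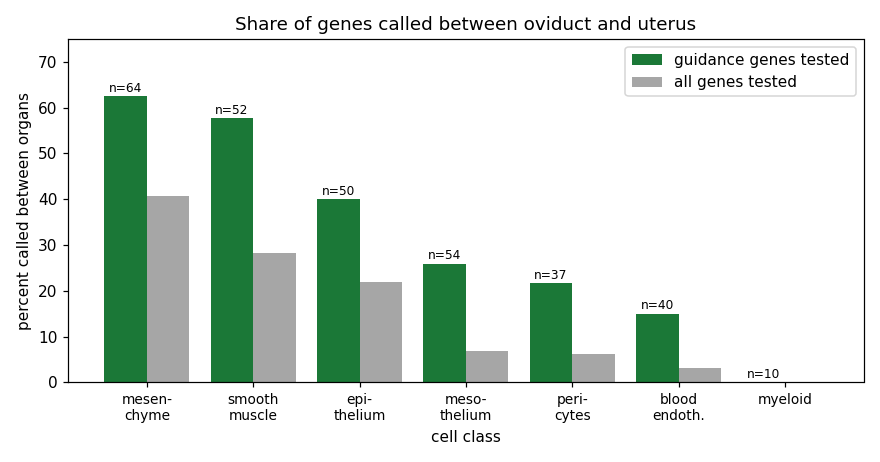
Percent of tested genes called between oviduct and uterus in each of 7 cell classes, for the guidance genes (green, with the number tested) and for all genes tested (grey). The guidance gene bar is 62.5% in mesenchyme and 57.7% in smooth muscle, and it is the higher of the pair in each class except the myeloid cells, where it is 0.

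The counts in the smaller classes moved when 1 library was left out, which also leaves that organ with 1 library. Whether the library itself or the smaller number of libraries moved them was not tested. Beside the results, values are given for each alternative that ended a call or moved a difference by over 1.5 times: DESeq2, classes taken from the clusters (Leiden classes), a stricter marker gate, doublets kept, free RNA subtracted, no filter on low counts, and each library left out. In epithelium 13 guidance genes were called without oviduct replicate 2. In mesothelium 9 were called without uterus replicate 1, and 23 in a fit with the replicate number as a block. In pericytes the count was 5 without oviduct replicate 1, 1 without uterus replicate 1 and 0 without uterus replicate 2. In blood endothelium leaving out oviduct replicate 2 gave 4, leaving out uterus replicate 1 gave 0 and leaving out uterus replicate 2 gave 1. The shares of all genes called in these fits are not given here, so the counts cannot tell a move of the guidance genes from one of all genes. The p-values rest on the spread between 2 pooled libraries per organ, and edgeR draws each gene's spread towards that of all genes fitted.

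All 72 genes had at least 1 UMI in the compared classes, 68 could be tested between the organs in at least 1 class, and 50 were called in at least 1, as were 52% of all genes tested. Of these 50, 41 differed in 1 direction only. The other 9 favoured the oviduct in one class and the uterus in another: Slit3, Robo2, Nrp2, Ntn4, Sema3c, Sema3d, Sema5a, Efnb3 and Epha5. Epha5 was called for the uterus in blood endothelium alone (-2.77 ± 0.69), and its adjusted p of 0.0318 became 0.292 with DESeq2, 0.164 with doublets kept (difference -1.57), 0.0587 with free RNA subtracted, 0.288 without oviduct replicate 1, 0.542 without uterus replicate 1 and 0.311 without uterus replicate 2. Efnb3 was called for the oviduct in mesothelium alone (0.79 ± 0.19), and its adjusted p of 0.0236 became 0.0756 with DESeq2 and 0.201 without uterus replicate 2. Mesenchyme and smooth muscle shared 26 called guidance genes, all 26 in the same direction, as were 97.5% of the 2833 genes called in both. The 2 classes overlap. Of the smooth muscle cells, 411 of 690 and 370 of 611 in the oviduct lay in clusters named smooth muscle. In the uterus 329 of 487 and 314 of 480 did, and most others lay in clusters named mesenchyme. The part of this overlap in the shared direction was not tested. Mesenchyme and epithelium shared 17, of which 15 had the same direction, against 73.8% of all genes called in both. Mesenchyme and mesothelium shared 11, of which 8 had the same direction, against 71.2%. Summed counts cannot tell a larger number of expressing cells from more RNA per cell.

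**Figure D2:**
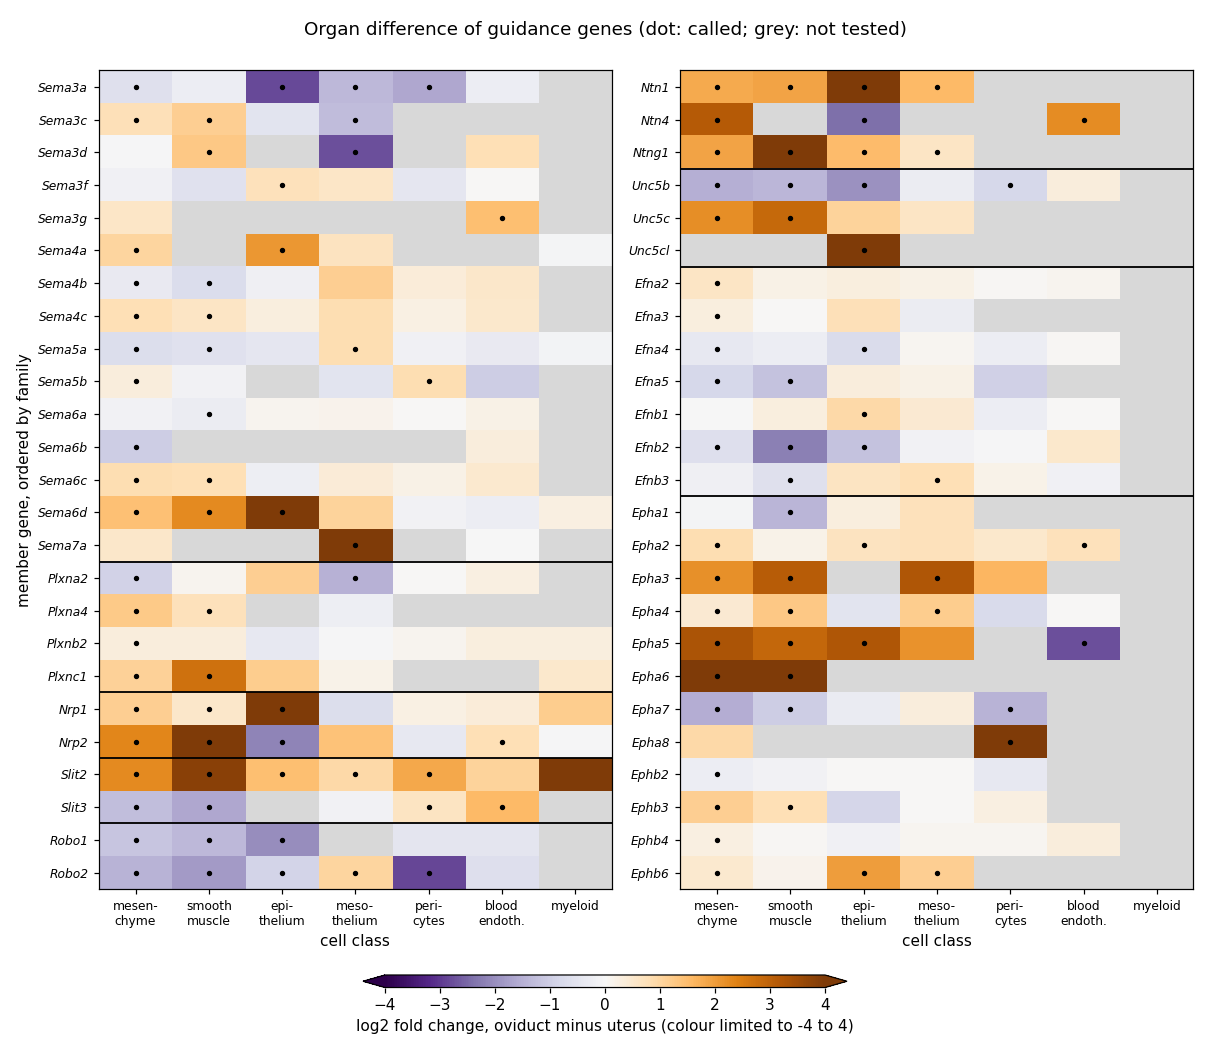
Organ difference of the 50 guidance genes called in at least 1 class, as log2 fold change, oviduct minus uterus, in each of 7 cell classes (orange, higher in the oviduct; purple, higher in the uterus; dots, called; grey, not tested). Mesenchyme and smooth muscle have the same colour at all 26 genes called in both, while Nrp2 and Ntn4 are orange in mesenchyme and purple in epithelium.

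Most guidance genes, like most genes, were higher in some classes than in others. Every class was set against the mean of the other 6, averaged over the organs, and 63 of 65 tested members were higher in at least 1 class, as were 93.1% of all genes. Members higher numbered 41 in mesenchyme (34.6% of all genes), 34 in smooth muscle (31.5%), 24 in epithelium (32.3%), 32 in mesothelium (29.4%), 21 in pericytes (22.9%), 20 in blood endothelium (31.2%) and 8 in myeloid cells (21.4%). By highest mean level, 18 members peaked in mesothelium, 16 in blood endothelium, 14 in mesenchyme, 13 in epithelium, 4 each in pericytes and myeloid cells, and 3 in smooth muscle. The largest class differences (log2, with approximate SE) among members at 10 CPM or more were, in mesothelium, Plxna4 (6.13 ± 0.09), Sema3e (5.97 ± 0.34), Sema3c (4.43 ± 0.08), Epha1 (4.11 ± 0.30) and Ntng1 (3.92 ± 0.18). In epithelium they were Ntn4 (5.19 ± 0.24), Sema4d (4.64 ± 0.26), Epha1 (3.94 ± 0.27), Sema3c (3.66 ± 0.08) and Sema3b (3.11 ± 0.24). Blood endothelium had Robo4 (10.86 ± 0.15), Ephb1 (7.08 ± 0.24), Sema7a (6.47 ± 0.13), Sema3g (6.55 ± 0.29) and Plxnd1 (4.94 ± 0.05). Pericytes had Sema5b (4.49 ± 0.14), Slit3 (3.05 ± 0.13), Sema5a (2.68 ± 0.10), Sema6d (2.25 ± 0.12) and Plxnb1 (2.24 ± 0.31, and 1.44 with DESeq2). The stromal classes shared Ntn1, at 3.27 ± 0.14 in mesenchyme and 3.59 ± 0.16 in smooth muscle. To Ntn1 came Unc5c (4.15 ± 0.13), Epha3 (3.20 ± 0.29), Epha5 (3.07 ± 0.26) and Sema3d (3.02 ± 0.11) in mesenchyme, and Efna3 (3.03 ± 0.16), Ephb2 (2.27 ± 0.12), Robo2 (2.11 ± 0.08) and Sema5b (2.10 ± 0.18) in smooth muscle. Myeloid cells had Sema4d (6.11 ± 0.36), Plxnc1 (3.48 ± 0.41), Sema4a (3.09 ± 0.33), Nrp2 (1.53 ± 0.18) and Nrp1 (1.51 ± 0.15).

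**Figure D3:**
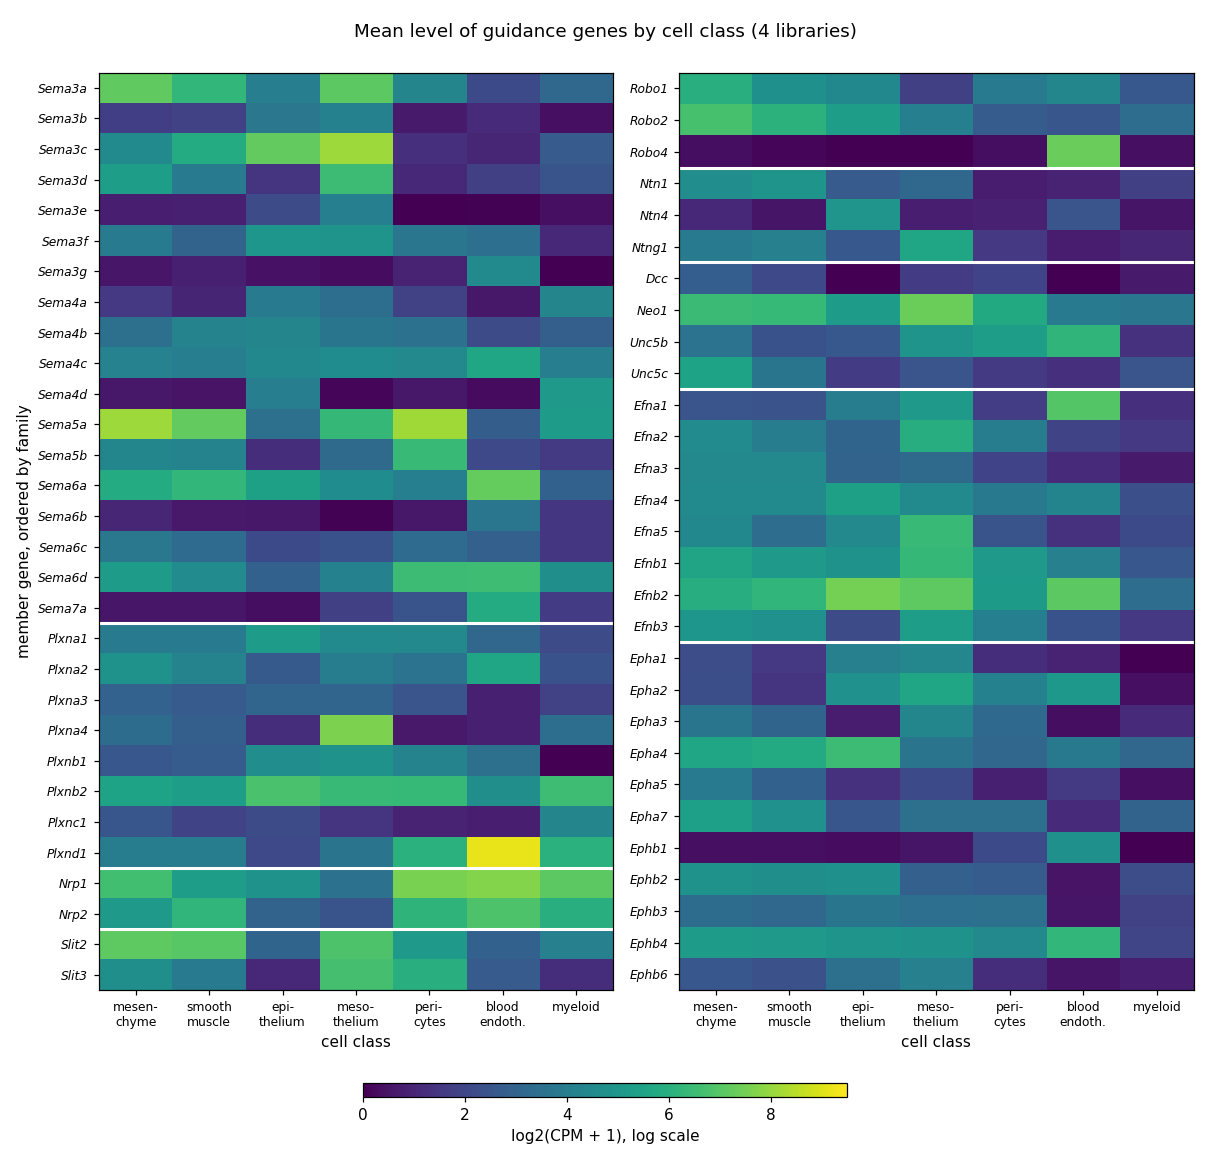
Mean level over the 4 libraries of the 59 guidance genes that reach 5 CPM in at least 1 of 7 cell classes, as log2(CPM + 1), ordered by family. Plxnd1 and Robo4 have their highest value in blood endothelium, Plxna4 and Sema3c in mesothelium, Sema5a in pericytes and Sema4d in myeloid cells.

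Slit2 and Slit3, secreted ligands of Robo receptors, went in opposite directions in the stroma, where the receptors Robo1 and Robo2 were higher in the uterus, as was Slit3. Slit2 (chr5:47983138-48307733, GRCm38) stood at 210.3 and 253 CPM in the mesenchyme of the oviduct and at 48.5 and 45.0 CPM in that of the uterus. Its log2 fold change was 2.28 ± 0.10 (approximate SE, adjusted p 9.66e-09). In smooth muscle Slit2 was 225 and 263 against 15.1 and 18.0 CPM (3.83 ± 0.12, adjusted p 4.9e-11). The organs did not overlap in either class. Slit3 (chr11:35121224-35708507) was higher in the uterus, at 13.9 and 16.9 against 37.7 and 34.5 CPM in mesenchyme (-1.26 ± 0.10) and 6.65 and 6.83 against 21.2 and 19.8 CPM in smooth muscle (-1.65 ± 0.16). Robo2 (chr16:73891839-74411825) was 55.6 and 58.8 against 165 and 146 CPM in mesenchyme (-1.47 ± 0.08, adjusted p 8.6e-08) and 28.3 and 33.4 against 108 and 103 CPM in smooth muscle (-1.82 ± 0.11). Robo1 (chr16:72308306-73046095) was 38.3 and 40.3 against 89.2 and 81.2 CPM in mesenchyme (-1.14 ± 0.08) and 13.5 and 17.1 against 34.0 and 41.3 CPM in smooth muscle (-1.36 ± 0.15). The mesenchymal difference of Robo2 was -0.95 with the stricter gate and that of Robo1 was -0.60 with the stricter gate. In both stromal classes every oviduct library was above every uterine library for Slit2 and below it for Slit3, Robo1 and Robo2.

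In epithelium Robo1 stood at 6.90 and 8.40 against 32.3 and 35.2 CPM (-2.01 ± 0.24) and Robo2 at 26.5 and 24.6 against 56.2 and 48.1 CPM (-0.89 ± 0.19), both higher in the uterus. Epithelial Slit2 was low, at 9.87 and 10.6 against 7.03 and 1.98 CPM (1.44 ± 0.43), and its adjusted p of 0.0239 became 0.155 with DESeq2, 0.0542 with free RNA subtracted, 0.0602 without oviduct replicate 2 and 0.297 without uterus replicate 2 (difference 0.72). Its difference was 0.90 with doublets kept and 2.45 without uterus replicate 1. Free RNA, scaled in epithelium by myeloid markers alone, could make up 11.5% of its oviduct UMIs and 3.53% of its uterine ones. In mesothelium Robo2 was higher in the oviduct, at 22.0 and 21.6 against 7.35 and 14.2 CPM (1.02 ± 0.28, adjusted p 0.048). Its adjusted p became 0.182 with DESeq2, 0.0638 with doublets kept, 0.177 with Leiden classes (difference 0.57), 0.0923 with the stricter gate and 0.357 without uterus replicate 1 (difference 0.61), and its difference was 1.59 without uterus replicate 2. Mesothelial Slit2 was 140.4 and 155 against 65.3 and 91.9 CPM (0.91 ± 0.16), with an adjusted p of 0.00391 that became 0.0555 without uterus replicate 1. Mesothelial Slit3 was 90.8 and 102 against 110.3 and 104 CPM and was not called (-0.15 ± 0.13).

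Pericytes had both slits higher in the oviduct. Slit2 there was 43.9 and 63.7 against 12.3 and 16.2 CPM (1.81 ± 0.23), and its adjusted p of 1.12e-05 became 0.0514 without uterus replicate 1 and 0.14 without uterus replicate 2. Pericyte Slit3 was 82.9 and 70.5 against 53.5 and 44.0 CPM (0.63 ± 0.16), and its adjusted p of 0.0197 became 0.355 with DESeq2, 0.0974 with Leiden classes, 0.131 with the stricter gate, 0.219 without oviduct replicate 1, 0.172 without uterus replicate 1 and 0.481 without uterus replicate 2. Pericyte Robo2 rested on 5 oviduct and 44 uterine UMIs (-2.85 ± 0.56), of which free RNA could make up 46.0% and 21.5%. Its adjusted p of 0.00149 became 0.0785 with DESeq2, 0.0788 without uterus replicate 1 and 0.312 without uterus replicate 2, and its difference was -1.28 with doublets kept. In blood endothelium Slit3 was 9.40 and 7.60 against 2.04 and 3.72 CPM (1.54 ± 0.36), and its adjusted p of 0.0187 became 0.229 with DESeq2, 0.15 with doublets kept (difference 0.87), 0.111 without oviduct replicate 1, 0.389 without uterus replicate 1 and 0.127 without uterus replicate 2.

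Robo4 (chr9:37401897-37415115), the Robo receptor known from endothelium, was 149 and 198 against 146 and 141 CPM in blood endothelium and was not called between the organs (0.30 ± 0.15). Blood endothelium exceeded the mean of the other classes by 10.86 ± 0.15 (log2). Robo3, with 26 UMIs in all, could not be tested. Slit1, with 128 UMIs, was highest in epithelium, at 4.46 and 6.77 against 0.703 and 3.97 CPM, and was not called.

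**Figure D4:**
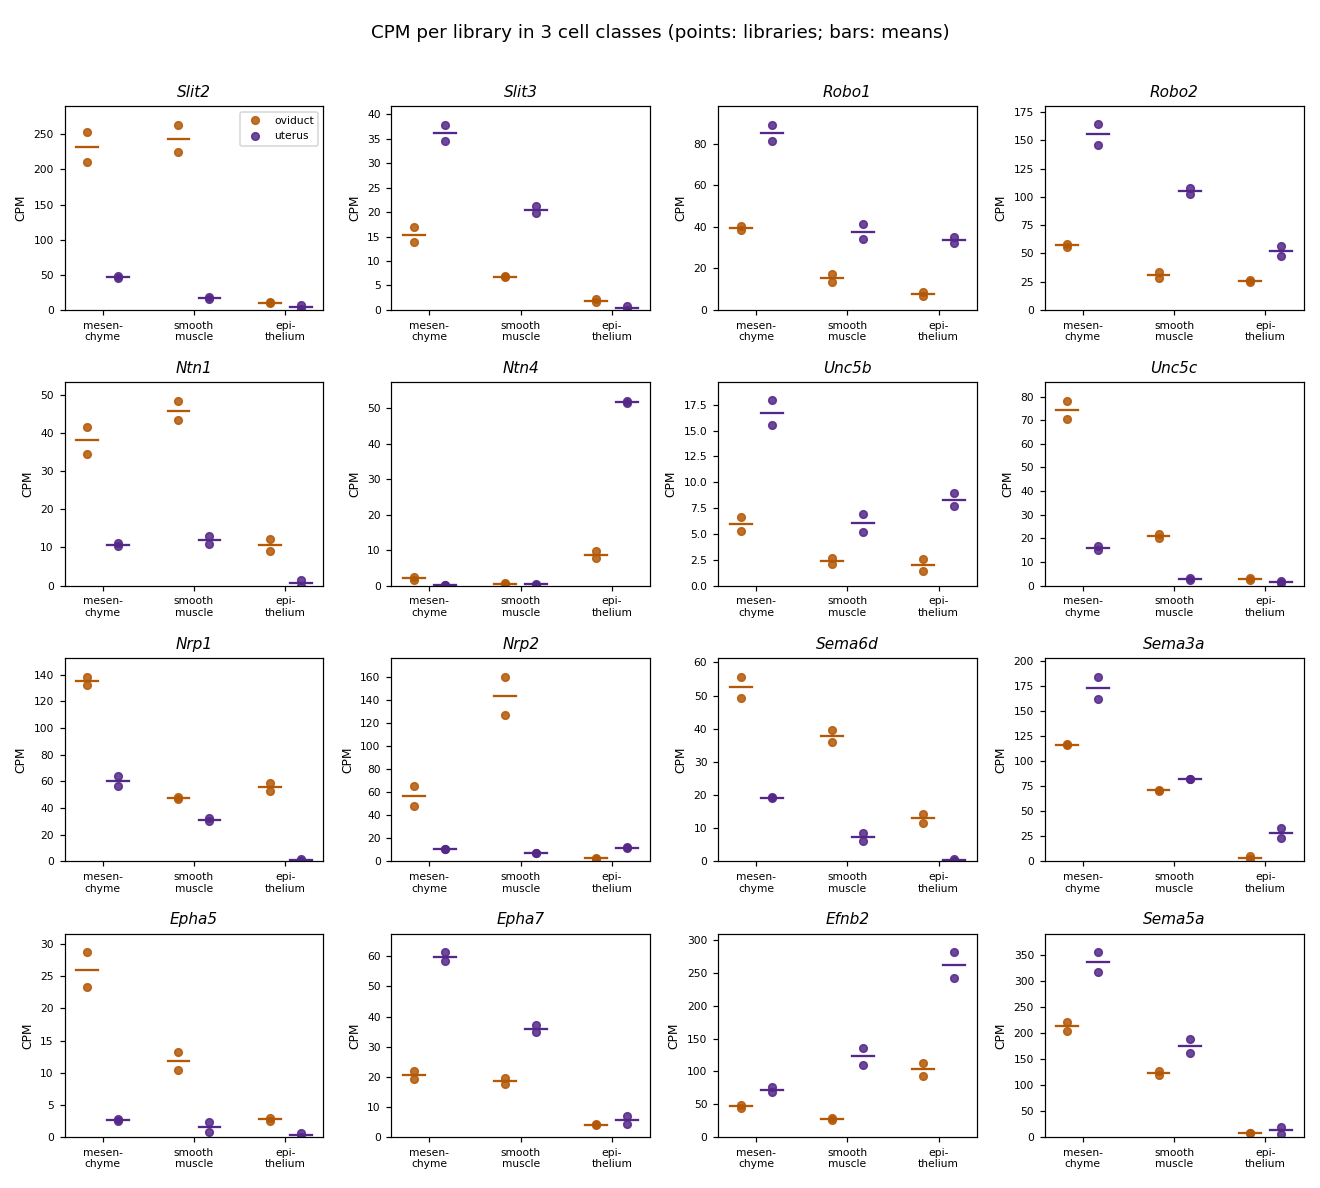
CPM per library of 16 guidance genes in mesenchyme, smooth muscle and epithelium (points, the 2 libraries of an organ; bars, their mean; each panel has its own axis from 0). In mesenchyme and smooth muscle the oviduct libraries of Slit2 lie above the uterine ones and those of Slit3, Robo1 and Robo2 below them, and Ntn4 is highest in uterine epithelium.

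Among the netrins, Ntn1 was higher in the oviduct in all 4 classes where it was tested, while Ntn4 was higher in the uterus in epithelium. Ntn1 (chr11:68209364-68400823), the classical secreted netrin, was 34.5 and 41.6 against 11.2 and 10.3 CPM in mesenchyme (1.79 ± 0.10, adjusted p 1.04e-07) and 43.2 and 48.3 against 13.0 and 10.8 CPM in smooth muscle (1.90 ± 0.13). The organs did not overlap in either. In epithelium Ntn1 had 172 oviduct UMIs against 2 uterine, a ratio of 18.5 (95% counting interval 5.05 to 154), with all of the uterine UMIs in replicate 1. The fitted difference, which at such counts depends on the prior count, was 4.26 ± 0.67 and 9.02 without uterus replicate 1. In mesothelium it was 11.6 and 12.6 against 2.45 and 5.85 CPM (1.54 ± 0.40), and its adjusted p of 0.0349 became 0.154 with DESeq2, 0.0684 with free RNA subtracted, 0.0702 without oviduct replicate 2 and 0.26 without uterus replicate 1, and its difference was 2.32 without uterus replicate 2. Ntn4 (chr10:93640681-93747207), a netrin of basement membranes, was 7.71 and 9.69 against 52.0 and 51.6 CPM in epithelium (-2.43 ± 0.22, adjusted p 1.31e-06), and epithelium exceeded the mean of the other classes by 5.19 ± 0.24 (log2). In mesenchyme Ntn4 was low and in the other order, with 187 oviduct and 13 uterine UMIs (3.15 ± 0.39), of which free RNA could make up 4.38% and 65.6%. Endothelial Ntn4 was 8.20 and 7.60 against 0.511 and 2.60 CPM (2.23 ± 0.45), and its adjusted p of 0.00837 became 0.0522 with DESeq2 and 0.302 without uterus replicate 1. Its difference was 3.94 without uterus replicate 2. Ntng1, the membrane-anchored netrin G1, was 29.3 and 34.6 against 1.57 and 1.66 CPM in smooth muscle (4.24 ± 0.21) and 23.8 and 22.5 against 5.87 and 6.43 CPM in mesenchyme (1.89 ± 0.10). Its highest level was in mesothelium, which exceeded the mean of the other classes by 3.92 ± 0.18. In epithelium Ntng1 was 7.30 and 7.70 against 1.41 and 3.97 CPM (1.5 ± 0.46), and its adjusted p of 0.0276 became 0.19 with DESeq2, 0.0801 without oviduct replicate 1, 0.159 without oviduct replicate 2 and 0.141 without uterus replicate 1. The epithelial difference was 2.57 without uterus replicate 2.

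Of the netrin receptors, Unc5c was higher in the oviduct and Unc5b in the uterus, and Dcc and Neo1 were called in no class. Unc5c (chr3:141465216-141834924) was 70.3 and 78.2 against 16.8 and 15.2 CPM in mesenchyme (2.19 ± 0.09, adjusted p 7.99e-09) and 20.2 and 22.0 against 2.56 and 3.06 CPM in smooth muscle (2.85 ± 0.20). Mesenchyme exceeded the mean of the other classes by 4.15 ± 0.13 (log2) for Unc5c. Unc5b (chr10:60762593-60831581) was 5.33 and 6.69 against 17.9 and 15.6 CPM in mesenchyme (-1.52 ± 0.12, adjusted p 1.61e-06). Epithelial Unc5b was 2.57 and 1.40 against 7.73 and 8.93 CPM (-1.96 ± 0.45), and its adjusted p of 0.00519 became 0.143 without oviduct replicate 2. In blood endothelium, where Unc5b was highest, it was 92.8 and 67.8 against 65.6 and 65.9 CPM and was not called (0.33 ± 0.16). Neo1, which binds netrins and repulsive guidance molecules, lay between 80.3 and 91.8 CPM in the 4 mesenchyme libraries (0.01 ± 0.08). Dcc, an attractive netrin receptor of commissural axons, was 5.96 and 6.40 against 6.74 and 5.56 CPM in mesenchyme and was not called (-0.02 ± 0.14).

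Both neuropilins are co-receptors of class 3 semaphorins and of vascular endothelial growth factors. Over whole stromal classes both were higher in the oviduct, and they parted in epithelium. Nrp2 (chr1:62703285-62818695) was 127 and 160.0 against 7.26 CPM in both libraries in smooth muscle (4.25 ± 0.15, adjusted p 9.23e-11) and 47.7 and 65.0 against 11.05 and 10.9 CPM in mesenchyme (2.33 ± 0.13). In epithelium the order was reversed, at 2.704 and 2.22 against 11.2 and 12.4 CPM (-2.14 ± 0.37). Nrp1 (chr8:128358604-128503363) was 52.5 and 58.7 against 1.41 and 0.496 CPM in epithelium. These are 891 UMIs against 3, a ratio of 64.0 (95% counting interval 21.8 to 311). Nrp1 was also higher in the oviduct in mesenchyme, at 138 and 133 against 64.0 and 56.6 CPM (1.14 ± 0.08), and in smooth muscle, at 48.4 and 46.8 against 32.3 and 30.3 CPM (0.56 ± 0.11, and 0.33 with Leiden classes). Within mesenchyme cluster 7 its order was reversed, at 40.3 and 51.1 CPM in the oviduct against 68.5 and 64.3 CPM in the uterus. In cluster 8 Nrp1 was 160.7 and 159.0 against 71.7 and 55.5 CPM. In myeloid cells Nrp1 was 213 and 169 against 93.7 and 71.1 CPM and was not called (1.19 ± 0.25, adjusted p 0.194). In blood endothelium Nrp2 was 112 and 179 against 98.8 and 70.7 CPM (0.81 ± 0.19), and its adjusted p of 0.0225 became 0.63 with DESeq2, 0.335 without oviduct replicate 2 (difference 0.46), 0.311 without uterus replicate 1 and 0.528 without uterus replicate 2.

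Of the class 3 semaphorins, which are secreted ligands, 3 were higher in the mesothelium of the uterus. Sema3d (chr5:12383385-12588948) was 24.6 and 21.5 against 181 and 135 CPM there (-2.77 ± 0.16, adjusted p 7.23e-07). Mesothelial Sema3a was 75.8 and 76.3 against 201 and 189.7 CPM (-1.36 ± 0.12) and Sema3c was 149 and 163 against 412 and 362 CPM (-1.31 ± 0.13). With the plexin Plxna2, at 6.68 and 9.22 against 22.1 and 21.7 CPM (-1.48 ± 0.28), these are the 4 members higher in uterine mesothelium, and no oviduct library reached a uterine one for them. In mesenchyme as a whole Sema3d was not called, at 36.3 and 40.9 against 39.8 and 37.8 CPM (-0.03 ± 0.08, adjusted p 0.786), although within clusters 7 and 8 its oviduct libraries lay above the uterine ones. In smooth muscle it was higher in the oviduct, at 20.7 and 18.6 against 5.98 and 9.69 CPM (1.27 ± 0.20). Sema3c was higher in the oviduct in mesenchyme, at 24.8 and 30.2 against 16.6 and 14.8 CPM (0.78 ± 0.10). Sema3a, a well known axon repellent, was higher in the uterus in mesenchyme, at 116 and 117 against 184 and 162 CPM (-0.60 ± 0.08, and -0.30 with the stricter gate), and in epithelium, at 5.00 and 2.22 against 33.0 and 23.3 CPM (-2.83 ± 0.34). Pericyte Sema3a was 7.89 and 11.5 against 26.8 and 30.7 CPM (-1.66 ± 0.28), and its adjusted p of 0.00033 became 0.206 without uterus replicate 2, and its difference was -0.89 with doublets kept. In smooth muscle Sema3a was 70.6 and 71.1 against 82.6 CPM in both libraries and was not called (adjusted p 0.0523). Sema3e, a ligand of Plxnd1, was highest in mesothelium, at 8.57 and 13.7 against 24.5 and 17.6 CPM, and was not called (-0.95 ± 0.31). Sema3g was highest in blood endothelium, at 35.8 and 27.5 against 12.3 and 11.5 CPM (1.46 ± 0.20), and its adjusted p of 0.000293 became 0.146 without uterus replicate 1 and 0.0554 without uterus replicate 2.

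Among the membrane-bound semaphorins, Sema6d was higher in the oviduct in 3 classes. It was 49.3 and 55.7 against 19.1 and 19.3 CPM in mesenchyme (1.42 ± 0.09) and 36.1 and 39.6 against 6.26 and 8.67 CPM in smooth muscle (2.28 ± 0.16). In epithelium Sema6d had 209 oviduct UMIs against 1 uterine, a ratio of 45.0 (95% counting interval 7.99 to 1786). That UMI was in replicate 1, and the fitted difference of 5.48 ± 0.68 was 9.30 without uterus replicate 1. In pericytes it lay between 82.4 and 92.6 CPM in the 4 libraries and was not called (-0.14 ± 0.14). Sema4a was higher in the oviduct in epithelium, at 20.6 and 25.0 against 6.33 and 5.46 CPM (2.09 ± 0.30). Sema5a, a transmembrane semaphorin with thrombospondin repeats, was higher in the uterus in mesenchyme, at 204 and 222 against 355 and 317 CPM (-0.68 ± 0.08). Its relative Sema5b was highest in pericytes, at 100.2 and 119 against 60.2 and 58.2 CPM (0.83 ± 0.15), and its adjusted p of 0.000554 became 0.0959 without uterus replicate 1 and 0.22 without uterus replicate 2. Sema4b was higher in uterine smooth muscle, at 13.7 and 14.5 against 20.9 and 23.2 CPM (-0.70 ± 0.14). Sema4d, known from immune cells, was highest in myeloid cells, which exceeded the mean of the other classes by 6.11 ± 0.36 (log2), and was called between the organs in no class. Sema7a, anchored in the membrane, was 60.2 and 49.4 against 58.7 and 56.0 CPM in blood endothelium and was not called there. In mesothelium Sema7a had 143 oviduct UMIs against 0 uterine, at least 4.09-fold higher against a floor of 3 counts over the uterine cells. Its fitted difference, no bound, was 8.27 ± 1.68, and 5.04 with DESeq2 and 3.81 with Leiden classes.

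Plexins are the signalling receptors of semaphorins. Of their 9 genes, of which Plxnb3 could not be tested, 4 were called between the organs in at least 1 class, against 52% of all genes tested. Plxnd1 was 575 and 604 against 632 and 531 CPM in blood endothelium (0.05 ± 0.14), which exceeded the mean of the other classes by 4.94 ± 0.05 (log2). Plxna4 (chr6:32144268-32588192) was 176 and 180.2 against 224 and 199.8 CPM in mesothelium (-0.25 ± 0.12), which exceeded the other classes by 6.13 ± 0.09. Neither was called between the organs in the class where it was highest. In mesenchyme Plxna4 was 13.0 and 13.1 against 6.59 and 4.34 CPM (1.24 ± 0.15, and 0.57 with the stricter gate). In smooth muscle it differed by 0.73 ± 0.23, and its adjusted p of 0.027 became 0.226 with DESeq2, 0.113 with Leiden classes, 0.0561 with free RNA subtracted, 0.147 without oviduct replicate 1, 0.133 without uterus replicate 1 and 0.0679 without uterus replicate 2. Plxna2 was higher in the uterus in mesenchyme, at 17.2 and 21.3 against 36.6 and 34.4 CPM (-0.92 ± 0.10). Plxnc1, the receptor of Sema7a, was highest in myeloid cells, which exceeded the other classes by 3.48 ± 0.41. Plxnb1 was tested in 6 classes and called between the organs in none.

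**Figure D5:**
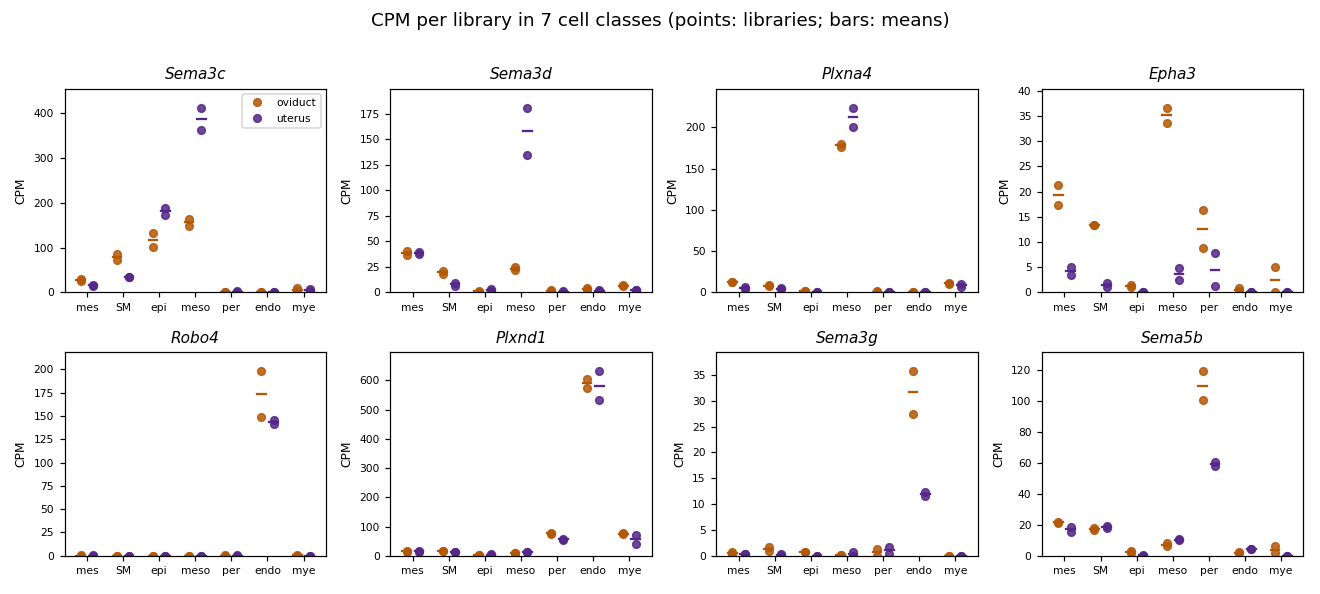
CPM per library of 8 guidance genes in 7 cell classes (mes, mesenchyme; SM, smooth muscle; epi, epithelium; meso, mesothelium; per, pericytes; endo, blood endothelium; mye, myeloid; points, libraries; bars, means; each panel has its own axis from 0). In mesothelium Sema3c and Sema3d are higher in both uterine libraries and Epha3 in both oviduct libraries, and Robo4 and Plxnd1 are highest in blood endothelium.

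Of the EphA receptors in the stroma, Epha3 and Epha5 were higher in the oviduct and Epha7 in the uterus. Epha5 (chr5:84054761-84417382) was 28.7 and 23.3 against 2.50 and 2.75 CPM in mesenchyme (3.28 ± 0.14, adjusted p 1.01e-08) and 13.2 and 10.48 against 0.712 and 2.29 CPM in smooth muscle (2.89 ± 0.34). Epha3 was 17.3 and 21.4 against 5.00 and 3.51 CPM in mesenchyme (2.16 ± 0.15), 13.4 and 13.3 against 1.85 and 1.15 CPM in smooth muscle (3.11 ± 0.26) and 36.6 and 33.5 against 4.90 and 2.51 CPM in mesothelium (3.23 ± 0.32). The oviduct libraries of both genes lay above the uterine ones in each of these classes. Epha7 (chr4:28813131-28967499) was 19.3 and 22.0 against 61.4 and 58.4 CPM in mesenchyme (-1.56 ± 0.09, adjusted p 8.43e-08) and 17.6 and 19.6 against 34.7 and 37.1 CPM in smooth muscle (-1.002 ± 0.12). Pericyte Epha7 was 8.39 and 2.03 against 17.3 and 13.3 CPM (-1.45 ± 0.42), and its adjusted p of 0.0393 became 0.373 with DESeq2, 0.144 with the stricter gate, 0.247 without oviduct replicate 2 (difference -0.87), 0.457 without uterus replicate 1 and 0.456 without uterus replicate 2, and its difference was -2.92 without oviduct replicate 1. Epha4, which binds ephrins of both groups, was higher in the oviduct in smooth muscle, at 67.7 and 87.8 against 30.04 and 32.0 CPM (1.27 ± 0.13), and in mesenchyme, at 50.3 and 58.4 against 38.0 and 39.5 CPM (0.46 ± 0.09). Within mesenchyme cluster 7 Epha4 was in the other order, at 2.83 and 15.7 CPM in the oviduct against 21.5 and 25.6 CPM in the uterus. In cluster 8 it was 46.3 and 54.0 against 45.9 and 40.6 CPM. In mesothelium Epha4 was 15.5 and 16.2 against 4.90 and 9.19 CPM (1.17 ± 0.32), and its adjusted p of 0.0462 became 0.201 with DESeq2, 0.0662 with Leiden classes, 0.0565 with free RNA subtracted, 0.0692 without oviduct replicate 2 and 0.33 without uterus replicate 1 (difference 0.78).

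Among the EphB receptors, Ephb4, known from veins, was 41.0 and 41.5 against 34.3 and 33.3 CPM in mesenchyme (0.26 ± 0.08). Its adjusted p of 0.0178 became 0.101 with the stricter gate, 0.0536 without oviduct replicate 1, 0.0505 without oviduct replicate 2, 0.0711 without uterus replicate 1 and 0.0778 without uterus replicate 2. In blood endothelium, where it was highest, Ephb4 was 70.2 and 98.7 against 73.3 and 63.4 CPM and was not called. Ephb1 was highest in blood endothelium, at 31.6 and 31.0 against 22.5 and 19.7 CPM, and was not called (0.61 ± 0.17, adjusted p 0.0697). Ephb6, whose kinase domain is inactive, was higher in the oviduct in epithelium, at 15.5 and 16.3 against 5.62 and 3.47 CPM (1.99 ± 0.34). Ephb3 was higher in the oviduct in mesenchyme, at 12.1 and 13.2 against 6.30 and 4.93 CPM (1.15 ± 0.12), and in smooth muscle (0.79 ± 0.20). In smooth muscle its adjusted p of 0.0079 became 0.107 with DESeq2 and 0.152 with the stricter gate. Ephb2 was called in mesenchyme (-0.28 ± 0.10), higher in the uterus, although its libraries overlapped, at 23.2 and 26.8 against 32.7 and 26.8 CPM. Its adjusted p of 0.0472 became 0.0912 with DESeq2, 0.102 with Leiden classes, 0.2 without oviduct replicate 1 (difference -0.18) and 0.302 without uterus replicate 1 (difference -0.16).

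The ephrins Efnb2 and Efna5, ligands of Eph receptors, were higher in the uterus in the stroma. Efnb2 (chr8:8617434-8661242), an artery marker, was 29.3 and 25.9 against 136 and 109.7 CPM in smooth muscle (-2.20 ± 0.12, adjusted p 7.59e-09). It was 93.3 and 113 against 283 and 242 CPM in epithelium (-1.21 ± 0.18) and 44.4 and 49.6 against 76.5 and 68.1 CPM in mesenchyme (-0.65 ± 0.09). No oviduct library reached a uterine one in these 3 classes. In blood endothelium Efnb2 was 166 and 152 against 122 and 105 CPM and was not called (0.53 ± 0.15, adjusted p 0.059). Efna5, a membrane-anchored ligand of EphA receptors, was 13.4 and 16.6 against 26.2 and 26.0 CPM in mesenchyme (-0.83 ± 0.10) and 5.96 and 5.81 against 11.96 and 14.4 CPM in smooth muscle (-1.21 ± 0.19). In mesothelium, where Efna5 was highest, it was 80.8 and 100.01 against 85.8 and 71.0 CPM and was not called. Efnb3 was higher in the uterus in smooth muscle, at 22.1 and 22.0 against 34.2 and 30.5 CPM (-0.60 ± 0.12), with an adjusted p of 0.00152 that became 0.0592 with Leiden classes (difference -0.28). Epithelial Efnb1 was 30.6 and 38.6 against 22.5 and 17.9 CPM (0.93 ± 0.23), and its adjusted p of 0.00916 became 0.0572 with DESeq2, 0.0676 without oviduct replicate 2 and 0.0702 without uterus replicate 2. Epithelial Efna4 was 33.7 and 25.7 against 47.1 and 60.0 CPM (-0.74 ± 0.21), and its adjusted p of 0.0196 became 0.0868 with DESeq2, 0.21 without oviduct replicate 2 and 0.222 without uterus replicate 2.

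Within the mesenchyme of each organ some guidance genes differed many-fold between clusters and others were nearly even. Values by cluster are a description, with no test. They cover clusters named mesenchyme by their mean marker scores, with at least 50 mesenchymal cells in both libraries of an organ. Cluster 14 in the oviduct (78 and 127 mesenchymal cells) and cluster 3 in the uterus (179 and 160) were not so named and are left out. Between the lowest and the highest cluster the ratio of mean CPM was 1.67 in the oviduct and 1.30 in the uterus for Ephb4, 1.91 and 1.92 for Neo1 and 1.91 and 1.51 for Plxnb2. Genes with large ratios, chosen after their values were seen, follow. In the uterus cluster 0, led by Pkib and Cck (729 and 657 cells), held Robo2 at 290.3 and 273 CPM and Robo1 at 152 and 138 CPM, with Slit3 at 1.16 and 1.40 CPM and Unc5c at 1.16 and 0.799 CPM. Cluster 7, led by Pdlim3 and Gucy1a1 (372 and 388 uterine cells), was the reverse, with Robo2 at 19.7 CPM in both libraries, Robo1 at 15.1 and 13.9 CPM, Slit3 at 98.96 and 82.4 CPM and Unc5c at 47.2 and 36.1 CPM. Sema3d was 10.6 and 8.69 CPM in cluster 0 and 99.97 and 92.0 CPM in cluster 7. Cluster 18, led by Pcdh10, held Slit3 at 102 and 86.9 CPM and Ntng1 at 59.9 and 46.6 CPM. In the oviduct cluster 2, led by Adra2c and Wfdc1, had Robo1 at 77.5 and 92.6 CPM and Slit3 at 0.638 and 0.759 CPM, while cluster 5, led by Angptl7 and Shisa2, had Robo1 at 7.48 and 8.90 CPM and Slit3 at 21.3 and 25.3 CPM. Of the 10 oviduct clusters covered, 15 and 7 had the most Slit3, at 67.4 and 69.3 and at 55.8 and 79.1 CPM, with Robo1 at 19.7 and 16.2 and at 6.36 and 6.59 CPM. Plxna4 was 49.9 and 45.9 CPM in cluster 5 and 1.09 and 0.759 CPM in cluster 2.

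Clusters 7 and 8 had at least 50 mesenchymal cells in every library, so that the organs could be set side by side within 1 cluster. Whether a shared cluster holds the same kinds of cells in both organs was not tested. Cluster 8 is marked by cell division and may hold dividing cells of several kinds. Cluster 9 fell short of this in 1 library, with 61, 87, 67 and 48 cells, and was not compared. In cluster 8, led by the mitosis genes Cenpf and Cenpa, Slit2 was 167 and 223 CPM in the oviduct and 34.9 and 35.2 CPM in the uterus, and Robo2 was 50.3 and 45.3 against 129.6 and 119 CPM. Epha7 was 15.7 and 23.8 against 62.6 and 48.3 CPM there, and Unc5c 54.7 and 57.5 against 7.17 and 3.06 CPM. In cluster 7 Slit2 was 200.04 and 203 against 103 and 81.7 CPM, and Ntn1 was 12.7 and 11.5 against 6.42 and 4.80 CPM. Robo1 was 6.36 and 6.59 against 15.1 and 13.9 CPM in cluster 7, but Robo2 overlapped, at 5.65 and 20.6 CPM in the oviduct and 19.7 CPM in both libraries in the uterus. In cluster 7 Epha7 overlapped, at 23.3 and 34.6 against 34.5 and 36.1 CPM, and Unc5c was 65.0 and 69.2 against 47.2 and 36.1 CPM, closer than in cluster 8. Slit3 was 55.8 and 79.1 against 98.96 and 82.4 CPM in cluster 7 and overlapped in cluster 8, at 4.33 and 18.0 against 14.8 and 18.4 CPM. Sema3d, which was not called over the whole class, was 180.2 and 157 against 99.97 and 92.0 CPM in cluster 7 and 47.3 and 46.4 against 13.9 and 18.8 CPM in cluster 8. In both clusters the oviduct libraries of Slit2, Unc5c and Sema3d lay above the uterine ones. So did those of Nrp2, Ntn1, Epha3, Epha5 and Sema6c, while those of Nrp1 and Epha4 lay above in cluster 8 and below in cluster 7. These members are examples, and the share of all genes with such an order is not given here. Ntng1 overlapped in cluster 7, at 3.53 and 4.12 against 4.82 and 4.09 CPM, and not in cluster 8, at 15.7 in both libraries against 3.35 and 2.30 CPM.

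The organ effect itself differed between classes for some members, tested as an interaction of organ and class in 1 model. Between epithelium and mesenchyme it differed for 21 of 65 members, against 17.8% of all genes. The largest among called members that reached 5 CPM in either class were Ntn4 (-5.47 ± 0.46, log2, epithelium minus mesenchyme), Nrp1 (5.05 ± 0.44), Nrp2 (-4.40 ± 0.38), Sema6d (4.25 ± 0.81) and Slit3 (4.17 ± 0.90). The uterine epithelium held 1 UMI of Slit3, 1 of Sema6d and 3 of Nrp1, so the size of these fitted values depends on the prior count. Slit3, with 31 UMIs in the oviduct epithelium, was not tested between the organs within epithelium and reached 5 CPM only through mesenchyme. The value of Slit3 was 9.67 without uterus replicate 1 and 1.99 with doublets kept, and its adjusted p of 0.00188 became 0.0563 with DESeq2. That of Sema6d was 9.81 without uterus replicate 1 and 2.74 with doublets kept. Between smooth muscle and mesenchyme the effect differed for 17 of 63 members, against 10.1% of all genes. The largest under the same limit were Ntng1 (2.37 ± 0.26, smooth muscle minus mesenchyme), Nrp2 (1.93 ± 0.13), Slit2 (1.55 ± 0.10), Efnb2 (-1.53 ± 0.11) and Sema3d (1.31 ± 0.20). Below 5 CPM, Plxnc1 (1.64 ± 0.41) and Epha1 (-1.36 ± 0.38) were also called, and both were singled out after their values were seen. Leaving out uterus replicate 1 gave 11 such members, and leaving out uterus replicate 2 also gave 11.

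Of the genes that act downstream of guidance receptors, 47 were tested in mesenchyme, with 10 calls for the oviduct and 12 for the uterus and a median log2 fold change of 0.03. Of all genes tested in mesenchyme 21.8% and 18.9% were called in these directions, 40.7% in all. Rnd1, a small GTPase that binds plexins, was 7.57 and 13.7 against 2.83 and 5.63 CPM (1.26 ± 0.30). Ngef (ephexin), an exchange factor that acts with EphA receptors, was 0.615 and 0.652 against 3.08 and 2.38 CPM (-2.13 ± 0.25). Of 31 other guidance cues and surface partners tested in mesenchyme, 12 were called for the oviduct and 10 for the uterus, against the same 40.7% of all genes, with a median of 0.23. Gfra1, a receptor of Gdnf, was 3.65 and 3.82 against 0.326 and 0.199 CPM (3.80 ± 0.28), while its ligand Gdnf was 0.335 and 0.340 against 1.01 and 1.82 CPM (-2.10 ± 0.37). Nrcam, an adhesion molecule of axons, was 6.17 and 5.89 against 1.01 and 1.56 CPM (2.19 ± 0.21), and the neurotrophin Bdnf was 1.30 and 1.90 against 5.40 and 5.96 CPM (-1.88 ± 0.20). Smooth muscle had 18 calls among 45 downstream genes (8 for the oviduct and 10 for the uterus), against 28.3% of all genes. Epithelium had 12 among 44 (4 and 8), against 21.9% of all genes. Of the other cues and partners, 13 of 26 were called in smooth muscle (9 and 4) and 11 of 20 in epithelium (4 and 7), against the same shares of all genes.

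The calls not yet described follow. Efna2 (0.59 ± 0.08), Sema4c (0.81 ± 0.12) and Sema6c (0.83 ± 0.11, and 0.54 with the stricter gate) were higher in the oviduct in mesenchyme. Efna3 (0.31 ± 0.08) was too, and its adjusted p of 0.0101 became 0.533 with the stricter gate (difference 0.08), 0.0512 without oviduct replicate 1 and 0.0665 without uterus replicate 2. For Plxnb2 (0.33 ± 0.08) the adjusted p of 0.00814 became 0.0745 with the stricter gate and 0.073 without uterus replicate 2. Sema6b was higher in the uterus in mesenchyme (-1.02 ± 0.35), with an adjusted p of 0.0361 that became 0.11 with DESeq2, 0.239 with the stricter gate (difference -0.63), 0.0517 with free RNA subtracted, 0.0504 without oviduct replicate 2 and 0.431 without uterus replicate 1 (difference -0.45). In smooth muscle Epha1 was higher in the uterus (-1.43 ± 0.38), with an adjusted p of 0.0113 that became 0.152 with DESeq2, 0.0796 with the stricter gate, 0.066 without oviduct replicate 1, 0.111 without uterus replicate 1 and 0.0646 without uterus replicate 2. Sema6a was also higher there (-0.30 ± 0.10), with an adjusted p of 0.0333 that became 0.139 with DESeq2, 0.0595 with no filter, 0.0721 with Leiden classes, 0.136 without oviduct replicate 1, 0.123 without oviduct replicate 2, 0.144 without uterus replicate 1 and 0.0831 without uterus replicate 2. Sema3f was higher in the oviduct in epithelium (0.74 ± 0.21), with an adjusted p of 0.0182 that became 0.113 with DESeq2, 0.0657 without oviduct replicate 1 and 0.0886 without uterus replicate 1. Epha2 was higher in the oviduct in 3 classes, in each of them by a call that several alternatives ended. In mesenchyme its difference was 0.82 ± 0.22, and the adjusted p of 0.0123 became 0.0853 with Leiden classes (difference 0.39), 0.881 with the stricter gate (difference 0.06), 0.0886 without oviduct replicate 2 (difference 0.48) and 0.0765 without uterus replicate 1. In epithelium (difference 0.67 ± 0.22) the adjusted p of 0.037 became 0.205 with DESeq2, 0.188 without oviduct replicate 2, 0.0805 without uterus replicate 1 and 0.146 without uterus replicate 2. In blood endothelium (difference 0.73 ± 0.18) the adjusted p of 0.0336 became 0.229 with DESeq2, 0.0559 with free RNA subtracted, 0.305 without oviduct replicate 2, 0.47 without uterus replicate 1 and 0.234 without uterus replicate 2.

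Plxnc1, with a mean under 5 CPM over the 4 libraries of either stromal class, was 6.17 and 6.97 against 3.15 and 2.91 CPM in mesenchyme (1.09 ± 0.15, adjusted p 0.000167) and 4.79 and 5.35 against 0.569 and 0.892 CPM in smooth muscle (2.7 ± 0.38). Its mesenchymal adjusted p became 0.0525 with the stricter gate (difference 0.48). Epithelial Epha5 was 2.43 and 3.03 against 0.703 and 0 CPM (3.25 ± 1.01), and its adjusted p of 0.0304 became 0.228 with DESeq2, 0.0714 with doublets kept (difference 1.91) and 0.231 without uterus replicate 2 (difference 2.10). Its difference was 7.06 without uterus replicate 1, and it rested on 44 oviduct UMIs and 1 uterine UMI. Sema3c was higher in oviduct smooth muscle as well (1.14 ± 0.11). Sema5a was higher in uterine smooth muscle (-0.57 ± 0.09, and -0.38 with the stricter gate) and in oviduct mesothelium (0.82 ± 0.15). Unc5b was higher in uterine smooth muscle (-1.40 ± 0.29), with an adjusted p of 0.00207 that became 0.101 with the stricter gate. In uterine pericytes Unc5b was higher too (-0.81 ± 0.21), with an adjusted p of 0.0197 that became 0.347 with DESeq2, 0.387 without oviduct replicate 1 (difference -0.44), 0.32 without uterus replicate 1 and 0.459 without uterus replicate 2. Mesothelial Ephb6 was higher in the oviduct (1.15 ± 0.28), with an adjusted p of 0.023 that became 0.0919 with DESeq2 and 0.149 without uterus replicate 1. Mesothelial Ntng1 was also higher there (0.61 ± 0.17), with an adjusted p of 0.0475 that became 0.172 with DESeq2, 0.06 with free RNA subtracted, 0.0545 without oviduct replicate 2, 0.27 without uterus replicate 1 and 0.0749 without uterus replicate 2. In mesenchyme Sema4a (1.03 ± 0.26) was higher in the oviduct, and its adjusted p of 0.00818 became 0.0774 without uterus replicate 2. Mesenchymal Efna4 (-0.40 ± 0.10) was higher in the uterus, and its adjusted p of 0.00827 became 0.0673 without uterus replicate 1. Sema5b (0.33 ± 0.09) and Ephb6 (0.47 ± 0.15) were higher in oviduct mesenchyme. The adjusted p of Sema5b, 0.0164, became 0.166 without uterus replicate 2 (difference 0.21), and that of Ephb6, 0.0252, became 0.101 with DESeq2, 0.0938 with the stricter gate, 0.112 without oviduct replicate 2, 0.0769 without uterus replicate 1 and 0.0956 without uterus replicate 2. Mesenchymal Sema4b was higher in the uterus (-0.36 ± 0.11), with an adjusted p of 0.0209 that became 0.0906 with DESeq2, 0.406 with the stricter gate (difference -0.15), 0.168 without oviduct replicate 1, 0.0855 without uterus replicate 1 and 0.0552 without uterus replicate 2. In smooth muscle Sema4c (0.61 ± 0.16) and Sema6c (0.81 ± 0.20) were higher in the oviduct. The adjusted p of Sema4c, 0.0114, became 0.096 with DESeq2, 0.062 with the stricter gate, 0.0807 without oviduct replicate 2 and 0.0958 without uterus replicate 2, and that of Sema6c, 0.00746, became 0.0817 with DESeq2, 0.121 with the stricter gate, 0.0529 without oviduct replicate 1 and 0.066 without uterus replicate 2.

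A highest class mean under 5 CPM was found for 13 members: Epha6, Epha8, Epha10, Ntn5, Ntng2, Plxnb3, Robo3, Sema4f, Sema4g, Slit1, Unc5a, Unc5cl and Unc5d. Of these, Epha6 was called in mesenchyme (506 oviduct UMIs against 16 uterine) and in smooth muscle (41 and 0, at least 10.7-fold higher), Epha8 in pericytes (23 and 1) and Unc5cl in epithelium (68 and 0), all higher in the oviduct. These 3 were singled out after their values were seen. The adjusted p of Epha8, 0.00144, became 0.138 with DESeq2, 0.115 without uterus replicate 1 (difference 6.67) and 0.334 without uterus replicate 2. Epha10, Plxnb3, Robo3 and Unc5a, with 15 to 26 UMIs each, could be tested in no class. Another 18 members were tested and called in none, among them Plxnd1, Robo4, Neo1, Dcc, Efna1, Plxna1, Plxna3, Plxnb1, Sema3b, Sema3e, Sema4d and Ephb1. In 13 members an antisense gene overlaps, among them Unc5c, Plxna4, Ephb4, Ephb1, Epha1 and Plxnb1, and whether the counting used the strand is not given in the sources used here.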

How the data were processed

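Single-cell RNA of 2 oviduct and 2 uterus libraries was used as the UMI counts per gene and barcode that the authors deposited. Per the file headers the filtered tables came from Cell Ranger 6.0.1, and the submitters' processing notes name Cell Ranger, Seurat 4.2.3 and the build mm10. Annotation was GENCODE on GRCm38, the same build. The members and all gene lists were chosen with earlier results of these data known.

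A barcode was kept from 500 detected genes upward and up to 15% mitochondrial UMIs. The barcodes with the highest Scrublet doublet scores were removed, in a share that grew with the number of barcodes. A cell joined a class at a marker score of at least 0.15 with UMIs of at least 3 markers and a margin of 0.05 over the next class. These thresholds were loosened once because many uterine cells met no class, before members were examined. Counts were summed per library and class and tested with edgeR 4.0.16 in R 4.3.3 (quasi-likelihood, TMM, filterByExpr), with Benjamini-Hochberg adjustment over all genes. In the class fit each library had its own term. Values after ± are approximate SEs, the absolute log2 fold change divided by the square root of the test's F statistic. Free RNA was estimated, not bounded, from barcodes of at most 100 UMIs, with 1 scale per library and class. The scale pooled myeloid, endothelial and epithelial markers, and no mesenchymal ones. Some of these sets were left out in each compared class other than mesenchyme and smooth muscle. For epithelium only the myeloid markers remained. The marker sets differed. In uterine mesenchyme the pooled share was 8.19% and 7.72%. Epithelial markers alone gave 19.3% and 24.8%, myeloid markers 3.41% and 2.04%, and endothelial markers 4.88% and 4.79%. Mesenchyme clusters came from scanpy 1.11.5 (Leiden, 2000 variable genes without members, 30 components). Fits were tested on simulated data.

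Named with values were called members whose mean over the libraries reached 5 CPM: the 8 largest per direction in mesenchyme, smooth muscle and epithelium, and the 3 largest per direction elsewhere. To these came up to 5 members higher in each class at 10 CPM or more, the 5 largest interactions, and a fixed list of members given whatever their result, such as Slit2 and Dcc. Other members with values were added for the account of their family. Ratios carry exact 95% intervals, which cover counting error only. The alternatives were DESeq2 1.42.0, its size factors, no filter, a replicate block, doublets kept, Leiden classes, a stricter gate, free RNA subtracted and each library left out.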

Additional observations from a re-analysis of the deposited data

Results flagged for a closer look

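For 9 members, Nrp2 in 2 tests, the organ effect differed between 2 cell classes by a test of the difference itself, the interaction of organ and class in 1 edgeR model. Between epithelium and mesenchyme (log2, epithelium minus mesenchyme) the difference was -5.47 for Ntn4, 5.05 for Nrp1, -4.40 for Nrp2, 4.25 for Sema6d and 4.17 for Slit3. The uterine epithelium held 1 UMI each of Sema6d and Slit3 and 3 of Nrp1, so the size of these values depends on the prior count. Slit3, with 31 UMIs in the oviduct epithelium, was not tested between the organs within epithelium and reached 5 CPM only through mesenchyme. The value of Slit3 was 9.67 without uterus replicate 1 and 1.99 with doublets kept, and DESeq2 did not call it (adjusted p 0.0563). That of Sema6d was 9.81 and 2.74 in the same order. Ntn4 and Nrp2 were higher in the oviduct in mesenchyme and higher in the uterus in epithelium. Between smooth muscle and mesenchyme (smooth muscle minus mesenchyme) it was 2.37 for Ntng1, 1.93 for Nrp2, 1.55 for Slit2, -1.53 for Efnb2 and 1.31 for Sema3d. The tests called 21 of 65 and 17 of 63 members, against 17.8% and 10.1% of all genes. These are the 5 largest differences in each test among called members that reached 5 CPM in either class, so their sizes are those of a selected set.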

How the results depend on the processing

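Counts of called guidance genes kept within 1.5 times their value under every alternative in mesenchyme (40), in smooth muscle (30), in the class contrast (63) and in the interaction of epithelium and mesenchyme (21). With DESeq2 the counts were 13 in epithelium (20 with edgeR), 8 in mesothelium (14), 3 in pericytes (8), 1 in blood endothelium (6) and 9 in the interaction of smooth muscle and mesenchyme (17). With no filter on low counts 24 were called in mesothelium and 2 in myeloid cells. With the stricter gate 5 were called in pericytes. With 1 library left out the counts ran from 13 to 21 in epithelium, from 9 to 18 in mesothelium, from 0 to 9 in pericytes, from 0 to 6 in blood endothelium, from 0 to 1 in myeloid cells and from 11 to 17 in the interaction of smooth muscle and mesenchyme. The cause was not tested, beyond the smaller number of libraries. The shares of all genes called under each alternative are not given here. A move of the guidance genes and a move of all genes cannot be told apart from these counts.

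Whether the replicate numbers mark the shared pools of neonates is not stated. The deviations of same-numbered libraries from their organ means correlated at 0.19 in mesenchyme, 0.09 in smooth muscle and in mesothelium, -0.04 in pericytes, -0.01 in myeloid cells, -0.12 in blood endothelium and -0.19 in epithelium. With the replicate number as a block 23 guidance genes were called in mesothelium, and no other count moved by over 1.5 times. For this fit too the share of all genes called is not given here. Among the values of single genes followed here, which leave out most members that were not called, the call of Epha2 in epithelium was lost and 4 others were gained. With crossed numbers, an alternative chosen after seeing the data, 11 were called in blood endothelium.

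Of the values of single genes followed here under all alternatives, 2624 kept their direction and side of the threshold, 173 lost the call, 39 gained one and 0 reversed. Uterine epithelium, mesothelium and myeloid cells had 37 to 57 cells per library, and the part of these small numbers in the counts of calls was not tested.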
